A study of Mus musculus with 50 samples.

Results

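The insulin-like growth factor (IGF) genes examined here were the ligands Igf1 and Igf2, the receptors Igf1r and Igf2r, and the binding protein genes Igfbp3, Igfbp4, Igfbp5, Igfbp6 and Igfbp7. They were taken by gene symbol, with earlier results of these data known, and they made up 9 of the 23880 genes in the deposited tables. All 9 passed the filter on low counts, which left 12586 genes for testing. RNA came from the gastrocnemius, a fast calf muscle, of 50 male wild-type C57BL/6JRj mice, an inbred strain, in 6 age groups: 8, 18, 22 and 24 months (n = 8 per group) and 26 and 28 months (n = 9 per group). A stranded mRNA library was made from every mouse. All mice were caged singly and ate the purified AIN93M diet, and animals with overt illness or tumors at dissection had been excluded. The mice of 22 to 28 months had eaten this diet from about 18 months of age until the end, whereas those of 8 and 18 months had been moved to it at least 2 months before the end, so that age and diet history cannot be told apart between 8 months and the ages from 22 months on. The comparison of 28 with 22 months lies within the longer diet regime, but the mice of 28 months had eaten the diet for longer. Age and time on the diet cannot be told apart there either.

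IGF1 and IGF2 are small secreted peptides that bind the tyrosine kinase receptor IGF1R, through which they promote growth and protein synthesis in muscle. Muscle tissue makes its own IGF1 beside the IGF1 that reaches it from the liver, and IGF2 is best known from development and from regenerating muscle. IGF2R, also the cation-independent mannose 6-phosphate receptor, carries IGF2 to the lysosome, and the IGF binding proteins hold the ligands in blood and tissue, where they can prolong the life of a ligand or keep it from its receptor.

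The largest mean differences between 8 and 28 months, in size, were those of Igfbp3, Igf1r, Igfbp5 and Igfbp6, of which that of Igfbp5 did not pass the test. To show the DNA next to which these transcripts start, the 250 bases upstream of their RefSeq transcription starts in GRCm38.p6 are printed here, 5′ to 3′ on the strand of the gene, with capitals marking each E-box, the 6 letters CANNTG, the sequence class that myogenic transcription factors and other basic helix-loop-helix proteins bind. The class reads the same on both strands.
Igfbp3 (chr11:7213924-7214173, minus strand): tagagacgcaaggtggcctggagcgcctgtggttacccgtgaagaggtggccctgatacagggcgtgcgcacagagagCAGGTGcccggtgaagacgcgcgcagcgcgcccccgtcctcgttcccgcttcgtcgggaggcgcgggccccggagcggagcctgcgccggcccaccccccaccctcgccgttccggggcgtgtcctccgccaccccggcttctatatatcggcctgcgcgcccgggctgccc
Igfbp5 (chr1:72874866-72875115, minus strand): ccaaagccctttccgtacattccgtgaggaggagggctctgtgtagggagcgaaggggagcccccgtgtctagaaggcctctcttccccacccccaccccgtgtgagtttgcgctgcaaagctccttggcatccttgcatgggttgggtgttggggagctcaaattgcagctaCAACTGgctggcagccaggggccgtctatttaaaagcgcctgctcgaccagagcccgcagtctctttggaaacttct
Igf1r (chr7:67952007-67952256, plus strand): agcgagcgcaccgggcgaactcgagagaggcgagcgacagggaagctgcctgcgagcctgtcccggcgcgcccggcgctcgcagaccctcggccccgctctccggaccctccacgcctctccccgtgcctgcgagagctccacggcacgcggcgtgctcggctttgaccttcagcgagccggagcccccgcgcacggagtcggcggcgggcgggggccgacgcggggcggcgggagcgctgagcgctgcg
Igfbp6 (chr15:102143936-102144185, plus strand): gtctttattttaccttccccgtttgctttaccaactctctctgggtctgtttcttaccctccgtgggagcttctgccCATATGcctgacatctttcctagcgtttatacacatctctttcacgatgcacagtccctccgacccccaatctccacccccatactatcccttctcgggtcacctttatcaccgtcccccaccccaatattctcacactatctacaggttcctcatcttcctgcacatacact

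An E-box stood in 66.2% of all 32851 RefSeq windows of this length, the GC box GGGCGG on either strand in 32.7%, and TATAAA on either strand in 12.4%. The Igfbp3, Igfbp5 and Igfbp6 windows held 1 E-box each and the Igf1r window held none. The Igf1r window held 2 GC boxes and 42 CpG dinucleotides in 77.6% GC, against a median of 6 CpG and 52.4% GC over all windows. The Igfbp3 window had 32 CpG, the Igfbp5 window 10 and the Igfbp6 window 7. Of these only that of Igfbp6 held TATAAA, once, on the strand opposite to the gene, where the printed letters read TTTATA. The starts differed from the GENCODE gene starts by 0 bases for Igfbp3, 19 for Igfbp5, 570 for Igf1r and 176 for Igfbp6, so the windows depend on the annotation used. Igf2 has 4 RefSeq starts, and the deposited tables do not separate them. These matches are descriptions of letters in a window.

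Of the 50 libraries, total counts ranged from 13607229 to 21267375, and every one of the 9 genes had counts in every mouse, from 158 counts for Igf1r to 18334 for Igfbp5. The summed level of the 8 muscle fiber markers was 109436 to 176155 TPM in every mouse, and that of 3 hepatocyte markers was at most 1.56 TPM with 2 of the 3 at a median of 0, so the markers fitted the labeled tissue. The library of 28 months replicate 2 stood furthest from the median profile of its age (r = 0.968, against 0.982 for the next library), and it held the highest Igfbp3 and the lowest Igfbp5 and Igfbp6 of all mice. Values without it are given for Igf2, Igfbp3 and Igfbp5, which it moved most. In bulk muscle, fewer cells of a type and less RNA per cell cannot be told apart.

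Levels of different genes are compared in TPM, a unit scaled to the library total that takes transcript length into account. At 8 months, mean levels fell in the order Igfbp5 (164 TPM), Igfbp7 (95.5 TPM), Igfbp4 (61.8 TPM), Igfbp6 (56.4 TPM), Igf2r (20.9 TPM), Igfbp3 (13.8 TPM), Igf2 (11.9 TPM), Igf1 (10.5 TPM) and Igf1r (3.92 TPM). The ranges of neighbors in this order did not overlap between Igfbp7 and Igfbp4, between Igfbp6 and Igf2r, and between Igf1 and Igf1r, and they overlapped for the other 5 neighboring pairs. At 28 months, Igfbp5 (101 TPM), Igfbp7 (76.9 TPM) and Igfbp4 (64.3 TPM) still led, but Igfbp3, at a mean of 40.3 TPM, now stood beside Igfbp6, at 36.4 TPM, and was above it in 5 of 9 mice. All 8 neighboring pairs overlapped at 28 months, and Igf1r, at 8.00 TPM, remained the lowest on average.

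**Figure D1:**
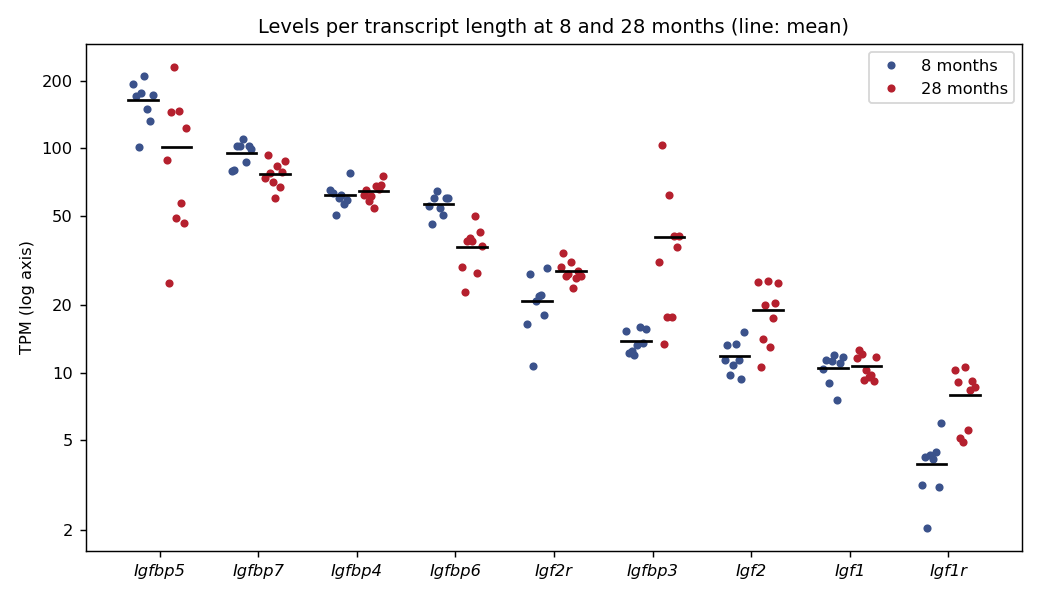
TPM on a log axis of the 9 IGF genes at 8 months (n = 8 mice, blue) and 28 months (n = 9 mice, red), with a point for each mouse and a line at the mean, ordered by the mean at 8 months. Igfbp3 spans 13.5 to 104 TPM at 28 months, against 12.0 to 16.0 TPM at 8 months, and Igfbp5 spans 25.3 to 230 TPM.

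None of the IGF genes was called before 26 months. Against 8 months, edgeR calls were made at a false discovery rate (FDR) below 0.01. At this threshold 0 of 9 IGF genes were called at 18 months (0.0715% of all genes tested), 0 at 22 months (0.0397%) and 0 at 24 months (0.612%). DESeq2 and limma also called 0. An unadjusted edgeR p below 0.05 was found in 0, 0 and 6 of the 9, beside 460, 1134 and 2422 of the 12586 genes tested. At 26 months 2 of 9 were called, against 18.4% of all genes, 1 of them higher (9.84% of all genes were called higher) and 1 lower (8.54%). At 28 months 6 of 9 were called, against 39.6% of all genes, 4 of them higher (21.0% of all genes) and 2 lower (18.7%). The median log2 fold change of the 9 genes at 28 months was 0.04, beside 0.01 over all genes tested.

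Within the longer diet regime, between 28 and 22 months, 5 of 9 genes were called, against 27.7% of all genes, 3 of them higher (16.2% of all genes) and 2 lower (11.5%). Between neighboring ages, none of the 9 passed: 0 between 22 and 18 months (0.00795% of all genes), and 0 in each of the steps from 22 to 24, 24 to 26 and 26 to 28 months, in which 0% of all genes were called with edgeR. In those 4 steps 0, 2, 3 and 3 of the 9 genes had an unadjusted edgeR p below 0.05, beside 522, 478, 2202 and 1609 of the 12586 genes tested. DESeq2 and limma also called 0 of the 9 in each. None of the 9 genes had CPM ranges at 28 months that lay wholly outside those at 8 months, as 4.70% of all genes tested did.

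**Figure D2:**
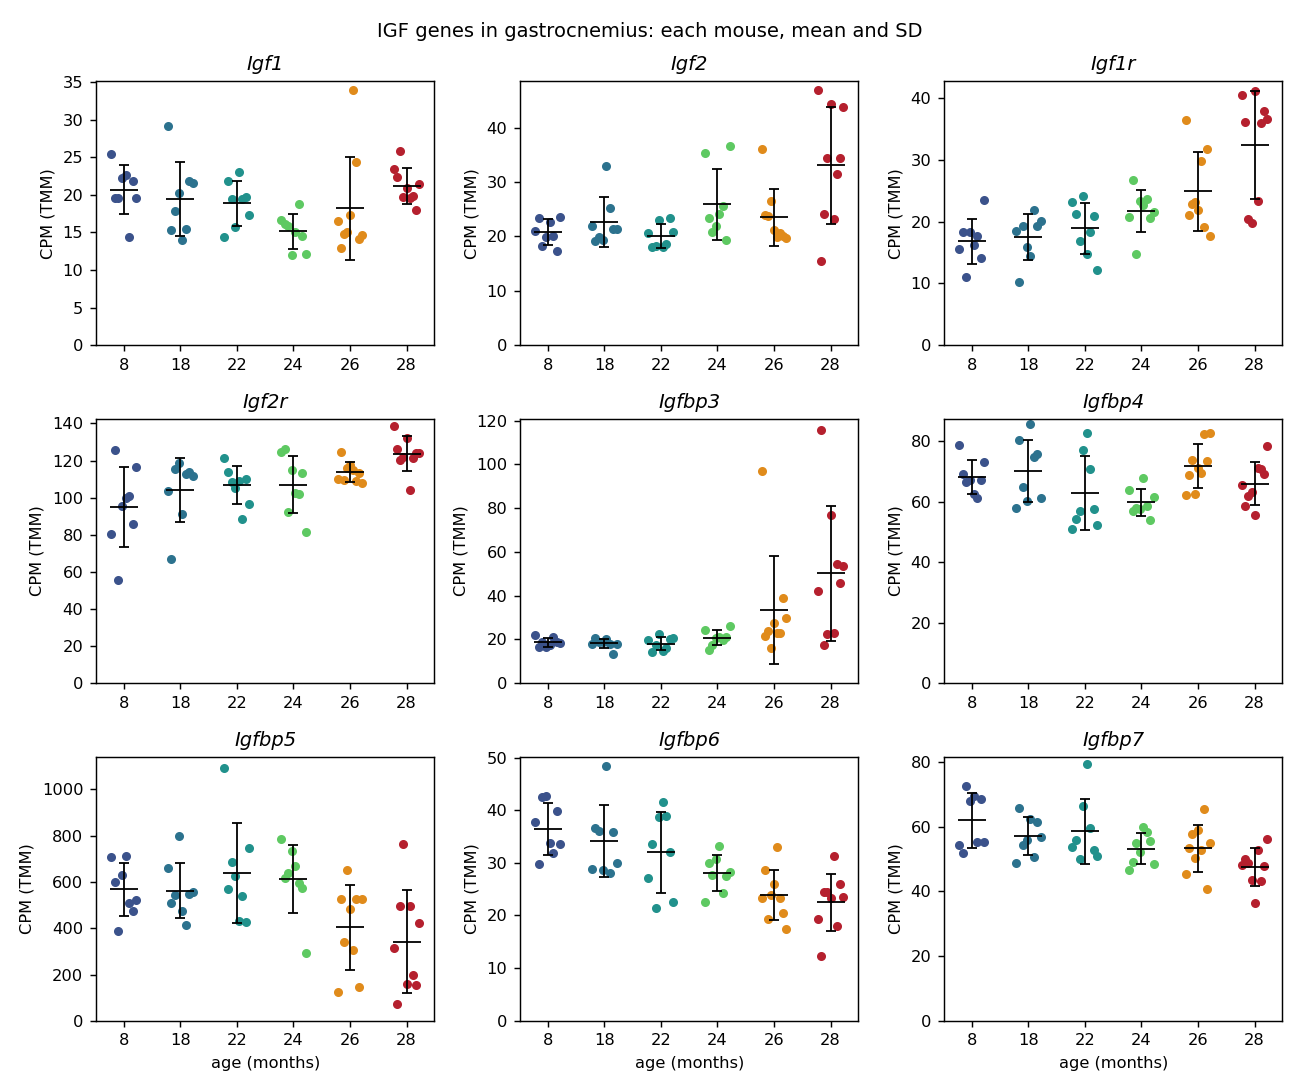
CPM (counts scaled to the library total with TMM factors) of each IGF gene in each of the 50 mice by age, with the mean and SD of each age as bars. Igfbp3 lies between 13.3 and 25.9 CPM up to 24 months and spreads from 17.5 to 116 CPM at 28 months, while the mean of Igfbp6 goes from 36.5 CPM at 8 months to 22.5 CPM at 28 months.

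Igf1 (chr10:87858265-87937042, plus strand), the ligand most tied to muscle mass, averaged 20.7 ± 3.23 CPM (SD, n = 8) at 8 months and 21.2 ± 2.38 CPM (n = 9) at 28 months. It was at 14.4 CPM in the lowest, 20.7 in the median and 25.4 in the highest mouse at 8 months, and at 17.9, 21.0 and 25.8 CPM at 28 months. The ranges overlapped, and the log2 fold change was 0.04 ± 0.14 (SE, FDR = 0.833). The mean was lowest at 24 months (15.1 ± 2.28 CPM, n = 8), where the mice lay between 12.0 and 18.8 CPM, and the median was lowest at 26 months (15.1 CPM). All 8 mice of 24 months lay below the mean at 8 months, but the log2 fold change of -0.45 ± 0.15 had an FDR of 0.0821 and was not called. At 26 months 7 of 9 mice also lay below the mean at 8 months, and replicate 6 stood at 34.0 CPM.

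Igf2 (chr7:142650766-142666816, minus strand) rose late. The lowest, median and highest mouse were at 17.4, 20.6 and 23.6 CPM at 8 months and at 15.5, 34.3 and 47.0 CPM at 28 months. At 28 months 7 of 9 mice lay above every mouse of 8 months and 1, replicate 2, lay below every one of them. The log2 fold change was 0.67 ± 0.15 (FDR = 0.000263), a 1.59-fold rise, and it was 0.72 ± 0.15 against 22 months (FDR = 0.000252). Without replicate 2 it was 0.76 (FDR = 2.11e-05). At 24 months 2 of the 8 mice had reached 35.4 and 36.7 CPM, and the change of 0.31 ± 0.15 was not called (FDR = 0.252). H19, the noncoding neighbor of Igf2 that is imprinted in the opposite sense, averaged 327 ± 99.8 CPM (SD, n = 8) in the 8-month and 326 ± 65.5 CPM (n = 9) in the 28-month mice, with an FDR of 0.988. It was picked for this comparison after its values were seen.

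Igf1r (chr7:67952827-68233668, plus strand), the receptor through which both ligands signal, rose with edgeR at 26 and 28 months. It was at 11.0, 16.9 and 23.5 CPM in the lowest, median and highest mouse of 8 months, at 17.7, 22.9 and 36.5 CPM at 26 months, and at 19.7, 36.1 and 41.2 CPM at 28 months. The 9 mice of 28 months split into 3 between 19.7 and 23.3 CPM, within the range of the young mice, and 6 between 36.0 and 41.2 CPM, above it. The log2 fold change against 8 months was 0.94 ± 0.16 at 28 months (FDR = 6.60e-06), a 1.92-fold rise, and 0.56 ± 0.16 at 26 months (FDR = 0.00623). The call at 26 months passed in 10 of 17 fits that left out 1 mouse of these ages. Without 26 months replicate 1, it was 0.48 with an FDR of 0.024, and it was also lost with limma and with a score of long transcripts in the fit (0.34, FDR = 0.0302).

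Igf2r (chr17:12682406-12769664, minus strand), which clears IGF2 and sorts lysosomal enzymes, showed a small rise that passed at 28 months only. Its lowest, median and highest mouse were at 55.8, 97.6 and 126 CPM at 8 months and at 104, 124 and 138 CPM at 28 months. The log2 fold change was 0.38 ± 0.10 (FDR = 0.00160), and the 9 old mice all lay above the mean of the young ones, though only 3 lay above the highest. Against 22 months the change was 0.21 ± 0.10 (FDR = 0.0819). Airn, a noncoding RNA antisense to Igf2r and also picked after its values were seen, averaged 6.72 CPM in young mice (n = 8) and 5.12 CPM in the oldest (n = 9, FDR = 0.0147).

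Both receptor mRNAs are long, with longest coding transcripts of 11409 bases for Igf1r and 8887 for Igf2r, and they moved with the long mRNAs of a library as a whole. A long-transcript score was taken for each mouse as the mean log2 level of the 1200 tested genes whose longest coding transcript had at least 6753 bases minus that of 10813 other genes, the IGF genes left out. The median score was -0.07 at 8 months (lowest -0.55, highest 0.27) and 0.24 at 28 months (0.01 to 0.31). Of the 1200 long genes 476 were called higher and 70 lower at 28 months, and their median log2 fold change was 0.29, beside -0.02 in the other genes. Over the 50 mice Igf2r followed the score with r = 0.895 (rho = 0.865, 0.896 within ages and 0.839 without the 2 mice of the most extreme score), and Igf1r with r = 0.814 (rho = 0.793, 0.716 within ages and 0.769 without them). Age by age, r was 0.885 to 0.982 for Igf2r at 8, 18, 22 and 24 months, 0.0999 at 26 months and 0.761 at 28 months, and 0.548 to 0.954 for Igf1r. Igf1, whose longest coding transcript has 7052 bases, did not follow it (r = 0.0548, rho = 0.0263). Igfbp6 and Igfbp7, the shortest of the IGF genes by this measure (1112 and 1200 bases), had the most negative r. It was -0.554 for Igfbp6 and -0.594 for Igfbp7 (-0.305 and -0.423 within ages). The remaining IGF genes had r between -0.273 (Igfbp5) and 0.448 (Igfbp3). The 2 mice left out, 8 months replicate 3 and 18 months replicate 2, were the lowest of their ages in both receptors, and the libraries share depth and processing with every gene in them.

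With the score of each mouse in the edgeR fit, an alternative added after the data were seen, the log2 fold change of Igf2r at 28 months was 0.08 ± 0.06 (FDR = 0.263) and that of Igf1r 0.53 ± 0.13 (FDR = 0.00172). Igfbp3 (1.26 ± 0.31, FDR = 0.00152) and Igfbp6 (-0.54 ± 0.14, FDR = 0.00351) also passed in this fit, so that 3 of the 9 genes were called, against 22.6% of all genes in the same fit. Igf2 (0.54 ± 0.17, FDR = 0.0106) and Igfbp7 (-0.25 ± 0.09, FDR = 0.0329) did not. In the same fit 1 of the 9, Igfbp6, was called at 26 against 8 months (14.0% of all genes), and 2, Igf2 and Igfbp3, at 28 against 22 months (10.4%). What sets the score was not tested.

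**Figure D3:**
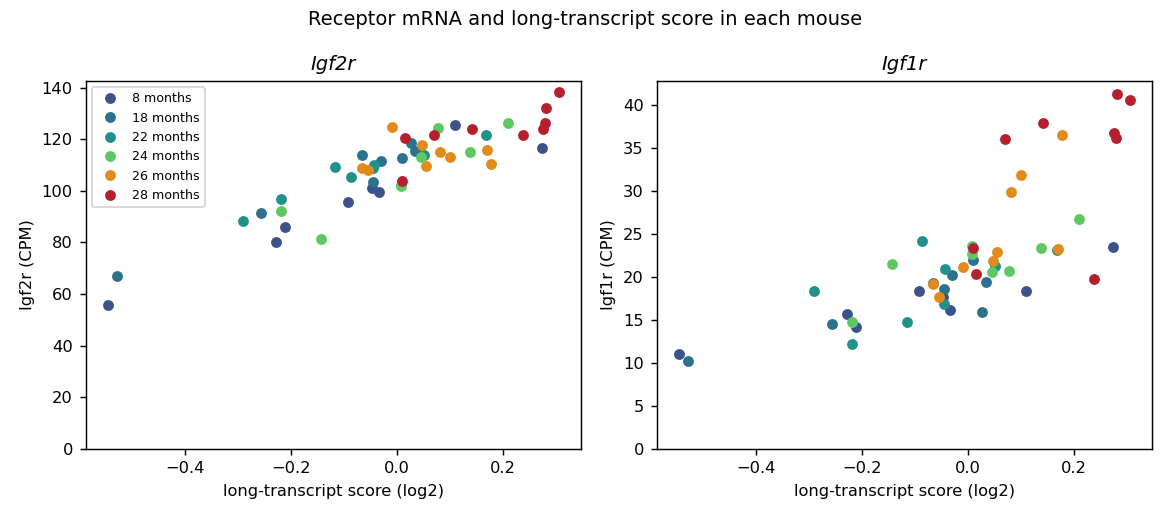
CPM of Igf2r (left) and Igf1r (right) against the long-transcript score of each of the 50 mice (log2 units), colored by age. Igf2r follows the score over the 50 mice (r = 0.895) but not among the 9 mice of 26 months (r = 0.0999), and 6 mice of 28 months lie at 36.0 to 41.2 CPM of Igf1r.

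Igfbp3 (chr11:7206086-7213923, minus strand), the main carrier of IGF in blood, showed the largest rise of the 9 genes. It was at 16.4, 18.4 and 21.9 CPM in the lowest, median and highest mouse of 8 months and stayed between 13.3 and 25.9 CPM in every mouse up to 24 months. At 26 months it was at 16.2, 23.7 and 96.9 CPM, and at 28 months at 17.5, 45.9 and 116 CPM. Of the 9 mice of 28 months, 8 lay above every mouse of 8 months. The log2 fold change at 28 months was 1.44 ± 0.26 (FDR = 1.70e-05), a 2.70-fold rise, and it was 1.48 ± 0.26 against 22 months (FDR = 4.28e-05). Without 28 months replicate 2 it was 1.18 (FDR = 0.000111). At 26 months the log2 fold change was 0.85 ± 0.26, just outside the threshold (FDR = 0.0103), and it passed with DESeq2 (0.85, FDR = 0.00465) and in 5 of 17 fits that left out 1 mouse. Without 26 months replicate 1 it was 0.45 (FDR = 0.111).

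Igfbp5 (chr1:72857932-72874884, minus strand), which skeletal muscle expresses strongly, spread widely at the oldest ages. It was at 387, 561 and 710 CPM in the lowest, median and highest mouse of 8 months, at 126, 483 and 651 CPM at 26 months and at 72.8, 313 and 763 CPM at 28 months. At 28 months 5 mice lay below every mouse of 8 months and 1, replicate 4, lay above them all. The coefficient of variation was 20.2% at 8 months and 65.0% at 28 months, and for Igfbp3 it was 10.7% and 61.8%. The log2 fold change of -0.73 ± 0.29 had an FDR of 0.0288 and was not called, and against 22 months it was -0.90 ± 0.29 (FDR = 0.0102), which passed with DESeq2 (FDR = 0.00397), upper-quartile factors (FDR = 0.00931) and limma (FDR = 0.00408 with a pseudocount of 1). Without 28 months replicate 4 it was -0.97 against 8 months and passed (FDR = 0.00324), and without replicate 2 it was -0.60 (FDR = 0.0625).

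At 26 and 28 months, mice with more Igfbp3 tended to have less Igfbp5. All 5 mice of 28 months whose Igfbp5 lay below every young mouse had Igfbp3 above every young mouse, as did all 6 mice whose Igf1r lay above every young mouse. Since 8 of the 9 mice of 28 months had Igfbp3 above every young mouse, these overlaps were largely fixed beforehand. Among those 8, replicates 4, 6 and 9 had 763, 498 and 424 CPM of Igfbp5, all above the lowest young mouse (387 CPM). Of the 36 pairs that the 9 genes form, Igfbp3 and Igfbp5 had the most negative correlation of log2 CPM over the 50 mice, at r = -0.82 (rho = -0.494), with -0.727 after the mean of each age was taken off and -0.703 without the 2 mice of the most extreme Igfbp3. The relation was seen at the old ages, with r = -0.832 at 26 months and -0.874 at 28 months (n = 9 each), beside values from -0.382 to 0.394 at the 4 ages before (n = 8 each). Igf1r and Igfbp3 had the highest r of the 36 pairs, 0.711 (rho = 0.516, and r = 0.47 within ages). Their r was 0.834 at 28 months, 0.658 at 26 months and from -0.554 to 0.204 at the 4 ages before. By rho, other pairs were the most extreme, Igfbp6 with Igfbp7 (0.647) and Igf2r with Igfbp7 (-0.555). These are descriptions, since the pairs were singled out from all 36 and the values come from the same libraries.

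**Figure D4:**
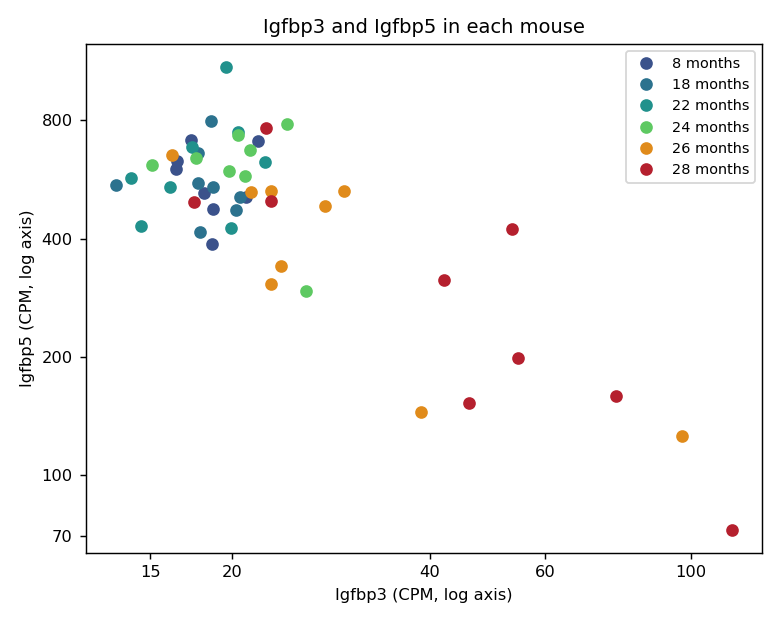
CPM of Igfbp5 against CPM of Igfbp3 in each of the 50 mice, both on log axes and colored by age. The mice of 8 to 24 months form a cloud at 13.3 to 25.9 CPM of Igfbp3, and mice of 26 and 28 months trail off toward 116 CPM of Igfbp3 and 72.8 CPM of Igfbp5.

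The makeup of the summed mRNA of the 5 binding proteins differed between old mice. Igfbp5 held 41.5% ± 5.62 (SD, n = 8) of the summed TPM at 8 months and 30.0% ± 14.8 (n = 9) at 28 months, and Igfbp3 held 3.57% ± 0.51 and 13.4% ± 9.75. In single mice of 28 months the share of Igfbp3 ran from 4.03 to 33.4% and that of Igfbp5 from 8.14 to 54.9%. The sum itself was 391 ± 40.8 TPM at 8 months and 319 ± 55.5 TPM at 28 months.

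Igfbp6 (chr15:102144362-102149511, plus strand), which prefers IGF2 over IGF1, fell from 26 months on. The lowest, median and highest mouse were at 29.8, 35.8 and 42.7 CPM at 8 months, at 17.4, 23.4 and 33.0 CPM at 26 months and at 12.3, 23.6 and 31.4 CPM at 28 months. At both older ages 8 of 9 mice lay below every mouse of 8 months. Igfbp6 fell by 0.61 ± 0.14 on the log2 scale at 26 months (FDR = 0.000795) and by 0.70 ± 0.14 at 28 months (FDR = 4.27e-05), and it passed in all 17 fits that left out 1 mouse at either age. At 24 months all 8 mice lay below the mean at 8 months, with a log2 fold change of -0.38 ± 0.14 (FDR = 0.120).

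Igfbp7 (chr5:77349240-77408041, minus strand), a vessel and matrix protein that binds IGF only weakly, was lower at 28 months. It was at 51.9, 61.6 and 72.6 CPM in the lowest, median and highest mouse of 8 months and at 36.3, 48.2 and 56.1 CPM at 28 months, where 7 of 9 mice lay below every young mouse. The log2 fold change was -0.38 ± 0.09 (FDR = 0.000416), and against 22 months it was -0.30 ± 0.09 (FDR = 0.00597). The change against 22 months did not pass without the filter on low counts (FDR = 0.0104), with only those 2 ages (FDR = 0.0214) or with limma (FDR = 0.0402 with a pseudocount of 1). Igfbp4 (chr11:99041244-99054392, plus strand), which restrains IGF until the protease PAPPA cuts it, was at 61.3, 67.1 and 78.8 CPM at 8 months and at 55.6, 65.3 and 78.4 CPM at 28 months. Its log2 fold change of -0.05 ± 0.09 had an FDR of 0.659.

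**Figure D5:**
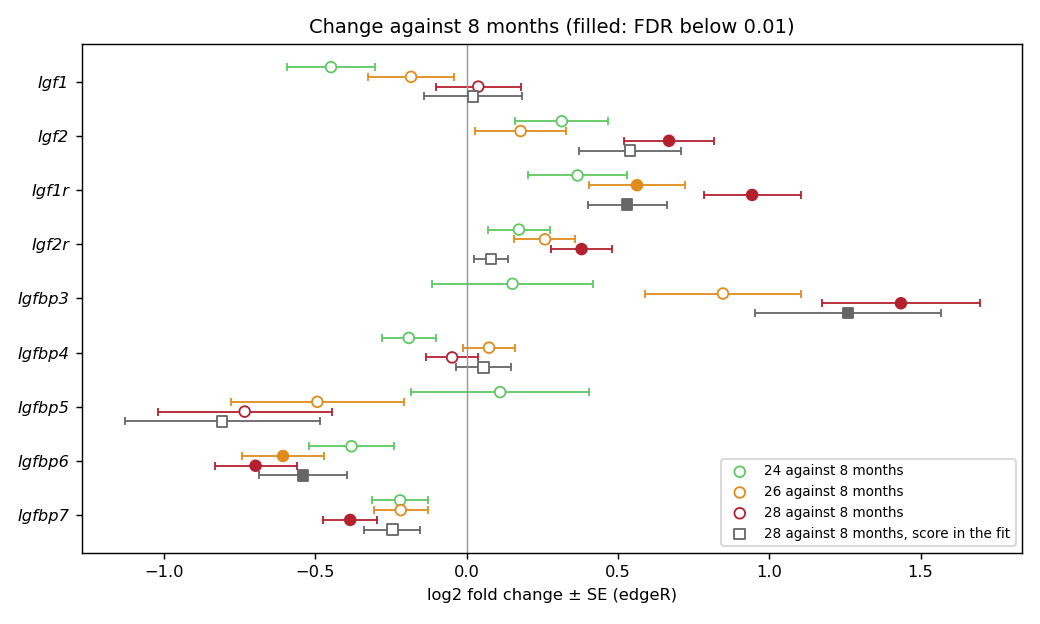
Log2 fold change and SE (edgeR) of each IGF gene against 8 months at 24 (green), 26 (orange) and 28 months (red), with filled points where the FDR was below 0.01. Gray squares give 28 months with the long-transcript score in the fit, in which Igf2r moves from 0.38 to 0.08.

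Markers of other cell types moved with several of these genes. The IGF genes named first with each list are those with the largest r, in size, over the 50 mice. Beside the marker counts that follow, 21.0% of all genes tested were called higher and 18.7% lower at 28 months. Of 7 fibroblast markers 0 rose and 5 fell at 28 months, with a median log2 fold change of -1.32, and their summed level was 789 to 1147 TPM at 8 months and 634 to 857 TPM at 28 months. None of the 7 had a median of 0. The summed level followed Igfbp6 with r = 0.61 and Igfbp7 with r = 0.502 over the 50 mice (0.322 and 0.273 within ages). Within ages its highest r was with Igf1 (0.425, and 0.416 over the 50 mice). Of 5 tenocyte markers 0 rose and 3 fell, and their sum, 87.4 to 204 TPM at 8 months and 40.8 to 166 TPM at 28 months, followed Igfbp6 with r = 0.748 (0.587 within ages) and Igfbp3 with r = -0.659 (-0.452). Of 6 measured endothelial markers 0 rose and 1 fell, with sums of 145 to 217 and 152 to 221 TPM, and the sum followed Igf1 with r = 0.486 (0.462 within ages). Of 5 adipocyte markers 0 rose and 4 fell, with a median log2 fold change of -1.45, and their sum, 36.7 to 162 TPM at 8 months and 27.4 to 57.8 TPM at 28 months, followed Igfbp6 with r = 0.523 (0.259 within ages).

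Of 6 macrophage markers 3 rose and 0 fell, and their sum, 61.9 to 116 TPM at 8 months and 96.1 to 229 TPM at 28 months, followed Igf1r with r = 0.418 (0.178 within ages). Of 5 satellite cell markers 4 were tested, 1 rose and 1 fell, and their sum, 15.8 to 20.6 TPM at 8 months and 15.8 to 25.5 TPM at 28 months, followed Igf1r with r = 0.587 (0.645 within ages) and Igfbp3 with r = 0.535 (0.525). Of 6 pericyte and smooth muscle markers 0 rose and 1 fell, and of 5 Schwann cell markers 0 rose and 0 fell, and both sums followed Igfbp6, with r = 0.444 and 0.443 (0.376 and 0.424 within ages). Of 8 muscle fiber markers 2 rose and 0 fell, and their sum followed Igf2 with r = 0.501 (0.59 within ages). Among these lists no marker had a median of 0. The sum of the 3 hepatocyte markers, 2 of them at a median of 0, had r = 0.457 with Igfbp6 (0.107 within ages). With Igfbp4 it had r = 0.284 (0.421 within ages). Values of this size were thus also reached by the list used to check for liver RNA. Within ages the adipocyte and macrophage sums had their highest r with Igfbp4 (0.431 and 0.364, and 0.401 and 0.309 over the 50 mice). Igfbp4 also had r = 0.413 with the Schwann cell sum (0.412 within ages). The part of any of these cells in the level of the IGF genes was not tested.

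Genes that respond to loss of innervation also moved with some of the IGF genes. Of 6 such genes 5 were tested and all 5 rose at 28 months, when 21.0% of all genes were called higher. The sum of the 6 was 39.4 to 62.0 TPM at 8 months and 79.8 to 504 TPM at 28 months, and the ranges did not overlap. Over the 50 mice the sum followed Igfbp3 with r = 0.764, Igf1r with r = 0.714, Igfbp6 with r = -0.691 and Igfbp5 with r = -0.676. Within ages these values were 0.532, 0.364, -0.357 and -0.512. The remaining IGF genes had r from -0.571 (Igfbp7) to 0.503 (Igf2) over the 50 mice, with -0.00451 for Igf1 and 0.0125 for Igfbp4. The part of denervation in the level of these genes was not tested.

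The genes most like each IGF gene were sought by Pearson correlation of log2 CPM over the 50 mice among all genes tested, as a description. Igfbp3 was most like Vegfd, a lymphatic growth factor (r = 0.938), Mocs1, an enzyme of molybdenum cofactor synthesis (r = 0.934), and Tfdp2, a partner of E2F factors (r = 0.91). Igfbp5 was most like Jph2, which ties the T-tubule to the sarcoplasmic reticulum (r = 0.912), Eml1 (r = 0.902) and Sypl2, a triad protein (r = 0.897). Igf1r was most like Zcchc14 (r = 0.924), the histone methyltransferase gene Kmt2b (r = 0.921) and Insr, the insulin receptor (r = 0.917). Igf2r was most like Apc (r = 0.924), Ppp1r12b (r = 0.918) and Mical3 (r = 0.907). The long-transcript score had r = 0.895 with Igf2r and 0.814 with Igf1r over the same mice, so these likenesses may be shared by many long mRNAs.

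Igfbp6 was most like Nbl1, a BMP antagonist (r = 0.875), Timp2, an inhibitor of matrix proteases (r = 0.867), and Crip1 (r = 0.858). Igfbp7 was most like the matrix genes Sparc (r = 0.78) and Crtap (r = 0.767), with Cavin3 (r = 0.769) between them. Igf2 had lower values, with 4430402I18Rik (r = 0.747), Sdk1 (r = 0.743) and Ccdc141 (r = 0.729), and so had Igfbp4, with Dpep1 (r = 0.638), Serping1 (r = 0.63) and Cyp2e1 (r = 0.621). Igf1 had the lowest over the 50 mice, with Mtmr10 (r = 0.609), Hhex (r = 0.597) and the adaptor gene Shc1 (r = 0.543). Within ages the highest r was 0.695 for Igf1, 0.671 for Igf2 and 0.699 for Igfbp4. The 3 genes most like Igf1 were then all different ones.

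Other genes of the pathway were taken as lists. Of 16 other carriers and proteases that act on binding proteins, 10 were tested. At 28 months 2 rose (21.0% of all genes were called higher) and 3 fell (18.7% lower), with a median log2 fold change of 0.21. Stc2 (1.81 ± 0.41, FDR = 0.000311) and Stc1 (1.37 ± 0.34, FDR = 0.000865), the stanniocalcins that inhibit PAPPA, rose. Mmp2, a matrix protease (-0.72 ± 0.14, FDR = 4.77e-05), Htra3, a serine protease (-0.59 ± 0.10, FDR = 1.01e-05), and Igfals, the acid-labile subunit that joins IGF and IGFBP3 in blood (-0.54 ± 0.17, FDR = 0.00594), fell. For Htra3 the 9 mice of 28 months all lay below the 8 mice of 8 months, and the 2 ages did not overlap in 4.70% of all genes tested. Igfbp1, Igfbp2, Igfbpl1, Pappa2, Adam12 and Adam28 did not pass the filter on low counts, Igfbp1 with 1 count in a single mouse.

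Of 8 genes of the growth hormone axis, which drives Igf1 in liver and muscle, 6 were tested. At 28 months 3 rose (21.0% of all genes were called higher) and 0 fell (18.7% lower), with a median log2 fold change of 0.65. The 3 that rose were the feedback inhibitors Socs3 (1.32 ± 0.40, FDR = 0.00576) and Socs2 (1.10 ± 0.30, FDR = 0.00247) and the transcription factor Stat5a (0.58 ± 0.12, FDR = 8.04e-05). The receptor gene Ghr, named after its values were seen, averaged 195 ± 14.1 CPM in young and 174 ± 28.0 CPM in the oldest mice (FDR = 0.111).

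Of 24 genes of receptor signaling 23 were tested. At 28 months 8 rose (21.0% of all genes were called higher) and 3 fell (18.7% lower), with a median log2 fold change of 0.17. The largest increases were those of Pik3r1, the regulatory subunit of PI3-kinase (1.86 ± 0.31, FDR = 5.94e-06), Irs2, an adaptor of both receptors for insulin and IGF1 (1.47 ± 0.34, FDR = 0.000322), and the kinase gene Akt1 (0.74 ± 0.14, FDR = 2.44e-05). The 3 that fell were Grb14, an inhibitor of the insulin receptor (-1.40 ± 0.27, FDR = 4.33e-05), the phosphatase gene Inppl1 (-0.48 ± 0.12, FDR = 0.000958) and the adaptor gene Grb2 (-0.21 ± 0.06, FDR = 0.00662). At 26 months 5 of the 23 were called higher (9.84% of all genes) and 2 lower (8.54%), and at 24 months 0 were called (0.612%).

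Of 7 genes for IGF2 mRNA binding and mannose 6-phosphate sorting, 5 were tested. With edgeR 0 rose (21.0% of all genes were called higher) and 0 fell (18.7% lower) at 28 months, when their median log2 fold change was 0.24. Of these, Gnptab (FDR = 0.0134), Gnptg (FDR = 0.0185) and Nagpa (FDR = 0.0298), which make the mannose 6-phosphate tag that IGF2R reads, had unadjusted p-values below 0.05 and are named after their values were seen. So did 7329 of the 12586 genes tested, so these p-values do not set the sorting genes apart.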

How the data were processed

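The authors trimmed paired reads with Cutadapt 1.9.1 and assigned them, by strand, with kallisto 0.43.1 to Ensembl transcripts of GRCm38, described as protein-coding, although 23.2% of the genes in the tables have another type in GENCODE vM21. A read that fitted several transcripts was split evenly among them. The deposited counts are sums over the transcripts of a gene, without normalization, and the deposited TPM values were divided by transcript length and scaled to library size by the authors. Libraries held 13607229 to 21267375 counts, and the SD or SE over mice states the precision. A quasi-likelihood model of edgeR 4.0.16 (R 4.3.3) with TMM factors was fitted to all 6 ages together, on genes reaching 1 CPM in 8 or more mice. In each of 10 comparisons p-values were adjusted over the genes tested by Benjamini-Hochberg and called at FDR below 0.01. The procedure was run on simulated counts in which the spread of a gene was the same at every age. That run does not cover genes whose spread grew with age, such as Igfbp3 and Igfbp5. CPM values use the TMM factors, and an SE is the log2 fold change divided by the square root of F. Ages and replicate numbers came from the deposited labels. Alternatives were no filter, RLE and upper-quartile factors, DESeq2 1.42.0, limma 3.58.1 on log2(TPM + 1) and log2(TPM + 0.1), only the 2 ages compared, blocking on replicate number, and leaving out each mouse. The long-transcript score was added after the data were seen, with lengths from GENCODE vM21, which gave a length for 95.5% of the genes tested. Correlations used log2(CPM + 1) in Python 3.11.15, with numpy 2.4.6, pandas 2.3.3 and scipy 1.17.1, and carry no p-value. Gene positions are those of GENCODE vM21 on GRCm38, and promoter sequences are from RefSeq (GRCm38.p6), where all 9 genes were found. The genes named were the 9 members, the 3 genes most like each of them and, in each pathway list, up to 3 called genes with the largest change in each direction, and any others are marked as chosen later or named as not tested. The members and all lists were chosen with earlier results of these data known.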

Additional observations from a re-analysis of the deposited data

Results flagged for a closer look

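In 6 of the 54 combinations of a gene and an age, a single mouse lay further from the others than Dixon's test allows at the 95% level, where chance alone flags about 1 in 20. Mouse 26 months replicate 1 was flagged in 2 genes, with the highest Igfbp3 of its age (96.9 CPM, next 38.9) and the highest Igf2 (36.1 CPM, next 26.4). Mouse 18 months replicate 5 was also flagged in 2 genes, with the highest Igf2 (32.9 CPM, next 25.2) and the highest Igfbp6 (48.4 CPM, next 36.7) of its age. The lowest Igfbp3 at 18 months, in replicate 7, was 13.3 CPM (next 17.7), and the lowest Igfbp5 at 24 months, in replicate 8, was 294 CPM (next 576).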

How the results depend on the processing

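At 28 months Igf1r, Igf2, Igfbp3, Igfbp6 and Igfbp7 kept their direction and passed FDR 0.01 against 8 months under each of the 8 planned settings and in each of the 17 fits without 1 mouse. Igf2r did so in all but the fit of only the 2 ages (0.38, FDR = 0.0155). Igfbp5 passed with limma (-0.94, FDR = 0.00838, with a pseudocount of 1, and -0.95, FDR = 0.00833, with 0.1). Igf1 and Igfbp4, not called in any of these, changed sign: Igf1 was -0.0176 with upper-quartile factors and ranged from -0.0238 to 0.0866 with 1 mouse left out, and Igfbp4 was 0.0605 and 0.0615 with limma (pseudocounts 1 and 0.1) and 0.0554 with the long-transcript score. The number of IGF genes called at 26 against 8 months was 1 instead of 2 with limma at both pseudocounts and with the score, where Igf1r was lost, and 3 with DESeq2, where Igfbp3 passed. It ranged from 1 to 3 with 1 mouse left out (1 without replicates 1, 3, 5 or 7 of 8 months or 1 or 8 of 26 months, and 3 without 2, 3, 4 or 7 of 26 months). At 28 against 22 months it was 3 instead of 5 with only the 2 ages, 2 with the score, 4 without the filter and 6 with upper-quartile factors and with DESeq2, and it ranged from 4 to 6 with 1 mouse left out, and at 28 against 8 months it was 3 instead of 6 with the score, in whose fit Igf2, Igf2r and Igfbp7 were lost. Their values are 0.54, 0.08 and -0.25. The cause of these changes was not tested.

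Whether mice that share a replicate number varied together could not be decided, because pairs with different numbers were not compared. Of 121 same-numbered pairs of mice, 52 had a correlation of their deviations over 0.1, and in 0 of 15 pairs of ages did every pair. The median correlation ran from -0.117 (18 and 22 months) to 0.195 (22 and 24 months). With the replicate block, 7 IGF genes instead of 6 were called at 28 against 8 months, since Igfbp5 passed (-0.91, FDR = 0.00768), and 6 instead of 5 at 28 against 22 months. In the other 8 comparisons the number of IGF genes called was that without the block. The count over all genes moved from 77 to 122 at 24 against 8 months, and from 1 to 2 at 22 against 18 months, as it did there with DESeq2 and with the score.

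Over all genes, other counts that moved by more than 1.5 times were, at 18 against 8 months, 9 in the main analysis and 4 with limma and with 2 ages. At 22 against 8 months they were 5, and 14 with upper-quartile factors, 34 with DESeq2, 12 with limma at 0.1, 24 with 2 ages and 14 with the score. At 24 against 8 months they were 77, and 190 with DESeq2 and 159 with 2 ages. At 28 against 22 months they were 3485, and 1883 with 2 ages and 1306 with the score, and at 28 against 8 months 4988 and 2841 with the score. From 0 in the main analysis, they were 7 with DESeq2, 4 with 2 ages and 1 without filter at 26 against 24 months, and 1 without filter and with limma at 1 at 28 against 26 months. With upper-quartile factors the share of higher calls at 28 against 22 months was 43.4% instead of 58.3%. With 1 mouse left out, the count at 26 against 8 months was 1454 without 26 months replicate 1, beside 2314, and that at 24 against 8 months 47 without 8 months replicate 7, and the small counts ranged from 3 to 8 at 18 against 8 months, from 1 to 12 at 22 against 8 months, from 1 to 3 at 22 against 18 months and from 0 to 1 at 26 against 24 months. Igfbp1 and Igfbp2 lay under the filter, with at most 0.0574 and 0.599 CPM in any mouse.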
